A study of Homo sapiens with 4 samples.

Results

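The 250 protein-coding genes on chromosome 19 whose symbols are ZNF followed by a digit were examined for histone H3 lysine 27 acetylation (H3K27Ac), a mark of active promoters and enhancers. They were chosen by symbol and position alone, out of 19675 protein-coding genes with a known strand, of which 1157 others also lie on chromosome 19. H3K27Ac occupancy was measured by ChIPmentation, in which the Tn5 transposase makes the sequencing libraries from immunoprecipitated chromatin. The cells were MOLM13, a human acute myeloid leukemia line with MLL1 rearrangement. There was 1 control library, whose label gives no treatment and whose treatment protocol names a DMSO arm, and 1 library of cells given 500 nM of SNDX-50469, an inhibitor of menin, for 16 h. Menin is a cofactor that tethers MLL1 and its fusion proteins to chromatin. Each condition therefore rests on 1 culture of 1 line, no comparison between conditions could be tested, and the Wilson 95% intervals given with shares cover counting error only. Neighbouring genes also share peaks, so the genes counted are not independent of each other.

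Most zinc finger genes of this chromosome encode KRAB zinc finger proteins, a large family of repressors of transcription that grew by repeated duplication of neighbouring genes. Their arrays of zinc fingers bind DNA, many at transposable elements, and the KRAB domain recruits TRIM28 (KAP1), which brings the H3K9 methyltransferase SETDB1, HP1 proteins and deacetylases. Clusters of these genes are themselves known to carry heterochromatin marks over their bodies. How far the promoters inside such clusters carry active acetylation in a leukemia line, and what of it is left after menin inhibition, are the questions the values below address. Whether a given member carries a KRAB domain was not analysed here.

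The deposited data are peak lists, with 245875 broad peaks covering 224 Mb in control and 54061 covering 29.4 Mb after SNDX-50469. On chromosome 19 they covered 11.0 and 1.77 Mb. The files give no read totals, so depth is unknown, and the smallest −log10 p of a listed peak was 2.68 in control and 3.93 after treatment. This difference in the length and the cutoff of the lists moves with every loss given below, and its part in them was not tested. In control, 9 of 9 myeloid genes that were checked (SPI1, CEBPA, CD33, FLT3, PTPRC, MPO, LYZ, CSF1R and CSF3R) had a peak at the 5′ end. Among genes of other cell types, ALB, CD3E, EPCAM and GATA1 had none there, while NCAM1 had 952 bp covered. After treatment, 6 of the 9 myeloid genes were covered, and NCAM1 had 0 bp.

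Members of the family were acetylated at their 5′ ends less often than their chromosome. A gene was counted as covered when a peak held at least 1 bp within 1 kb of its 5′ end, a window of 2001 bp. In the control library 120 of 250 zinc finger genes were covered (48.0%, 95% interval 41.9 to 54.2). The share was 59.9% over all protein-coding genes and 76.9% over the other chromosome 19 genes. After SNDX-50469, 50 of 250 were covered (20.0%, 15.5 to 25.4), where the share was 30.3% over all genes and 43.0% over the other genes of the chromosome. The summed covered length of the 250 windows was 128116 bp in control and 38414 bp after treatment. The share of other chromosome 19 genes stood above the members' interval in both libraries.

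Where coverage was lost, it was mostly lost whole. Of the 120 genes covered in control, 46 kept at least 1 covered position (38.3%, 30.1 to 47.3) and 74 kept none (61.7%, 52.7 to 69.9). The share keeping none was 50.7% over all genes and 46.1% over the other chromosome 19 genes. By length, 28.1% of the covered positions of members, 38.6% of those of the other genes and 34.2% over all genes were kept. The 250 members fell into 46 that kept coverage, 72 covered in control only, 128 covered in neither list, 2 covered in both lists with no shared position (ZNF358 and ZNF114) and 2 covered after treatment only (ZNF222 and ZNF738). The covered length fell at 116 members, rose at 5 and was equal and above 0 at 1, counts that were not made for other genes.

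**Figure D1:**
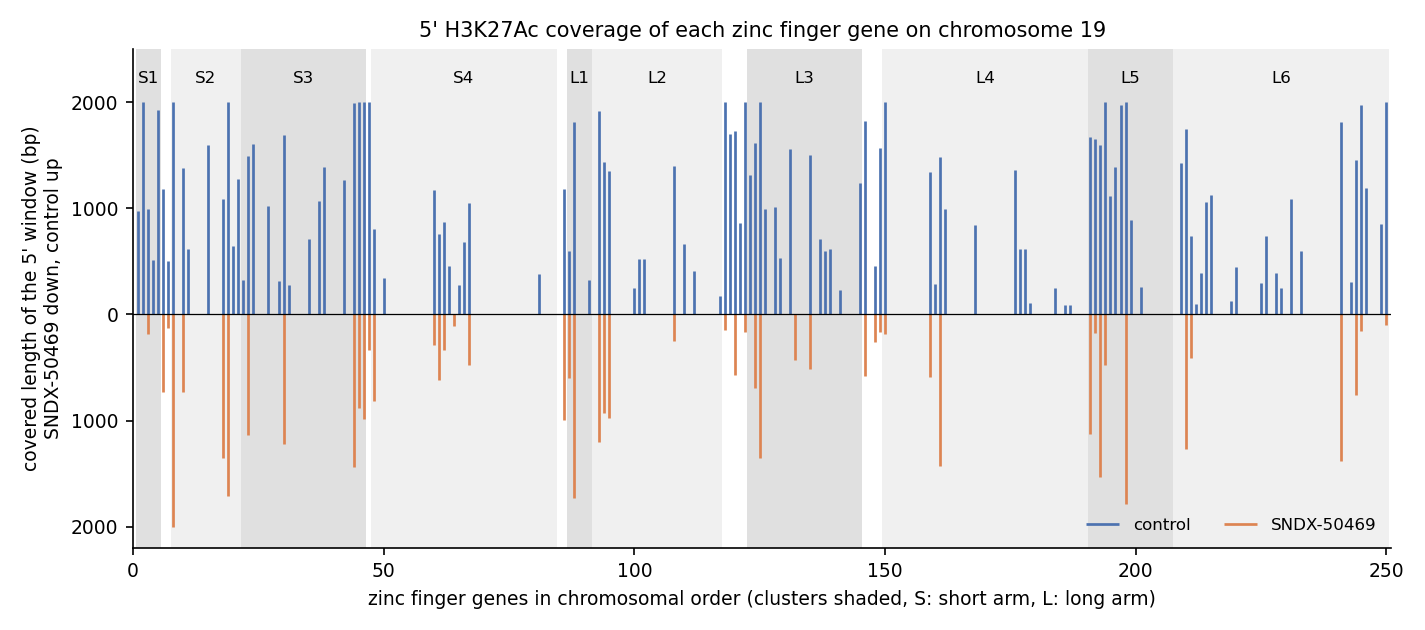
Covered length (bp) of the 5′ window of each of the 250 zinc finger genes in chromosomal order, with control drawn upward and SNDX-50469 downward and clusters shaded (S, short arm; L, long arm). Control lines rise in most clusters but are missing over long runs of S4, L2, L4 and L6, and the SNDX-50469 lines stand almost only under control lines.

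Among members that kept acetylation, ZNF414 alone had its whole 2001 bp window covered in both libraries. Its control peak was 9873 bp wide and its SNDX-50469 peak 3292 bp wide. ZNF787 was covered over 2001 bp in control and 1783 bp after treatment. ZNF181 had 1814 and 1729 bp, ZNF561 2001 and 1710 bp, and ZNF524 1594 and 1531 bp. All 5 kept most of their window. ZNF564 went from 1992 to 1436 bp, ZNF766 from 1484 to 1431 bp, ZNF274 from 1810 to 1377 bp and ZNF428 from 2001 to 1354 bp. ZNF274, a KRAB zinc finger protein known to bind the 3′ ends of zinc finger genes and to recruit SETDB1, was among the 10 members with the longest coverage after treatment. ZNF121 had 1086 bp in control and 1356 bp after treatment, of which 788 bp were shared, so that its coverage shifted as well as lengthened.

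The strongest member peaks of the treated library, by the −log10 q of the peak in its own list, lay at ZNF627 (7.40, rank 335 of that list) and ZNF114 (7.30, rank 349). The next (6.12, rank 589) lay at the 5′ end of ZNF700 and within the annotated body of ZNF69, which overlaps that gene. ZNF121 followed (5.74, rank 687). In control the peak at ZNF121 had a −log10 q of 15.43 and rank 409, and that at ZNF627 11.37 and rank 1293. Over all members, 145 control peaks touched a 5′ window, with a median width of 859 bp and 43 at a −log10 q of at least 5. After treatment 53 peaks touched a window, with a median width of 617 bp and 6 at that level. The whole lists fell as well, from 245875 peaks in control to 54061 after treatment, with 9275 and 938 at that level. On chromosome 19 they held 11939 and 2616 peaks, with median widths of 384 and 332 bp. The −log10 q and the ranks describe each list separately, and no change in peak strength was read from them.

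Wide coverage in control did not always leave a trace. ZNF555 was covered over 2001 bp in control and over 0 bp after SNDX-50469, although its control peak was 2601 bp wide with a −log10 q of 8.46. ZNF580 went from 1971 to 0 bp, ZNF77 from 1928 to 0 bp, ZNF780B from 1700 to 0 bp and ZNF823 from 1610 to 0 bp. These 5 were the widest of the 72 members covered in control only. In the other direction, ZNF222 went from 0 to 429 bp and ZNF738 from 0 to 112 bp, with peaks at ranks 41474 and 5137 of the treated list. ZNF302 (596 and 602 bp) and ZNF101 (810 and 815 bp) rose by a few bases only.

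The 5′ coverage of members was narrower than that of the other chromosome 19 genes. In control the median covered length of covered members was 1060 bp, with the middle of the distribution from 519 to 1596 bp (first to last quartile). The median was 1590 bp for the other covered genes of the chromosome and 1539 bp over all covered genes. At covered ZNF genes of other chromosomes it was 1420 bp, and at covered other genes inside the cluster spans defined below 1308 bp. Covered members in clusters had a median of 1006 bp, and those outside clusters 1636 bp. The whole window was covered at 13 of 250 members (5.20%, 3.06 to 8.69) and at 279 of 1157 other genes (24.1%, 21.7 to 26.7). Averaged over members, control coverage was highest 200 to 299 bp inside the gene, at 41.4% of genes, and fell to 6.40% at 4 to 5 kb inside. The other genes reached 63.4% at the same place but were still at 34.4% at 4 to 5 kb inside. After treatment the members' highest value was 12.8%, 300 to 399 bp inside the gene, and 0.596% remained at 4 to 5 kb, against 27.4% and 5.63% for the other genes. Coverage was skewed into the gene at members, with 31.7% over the first 1 kb inside and 19.5% over the 1 kb before it in control. The other genes were skewed in the same direction, with 58.7% and 50.1%.

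**Figure D2:**
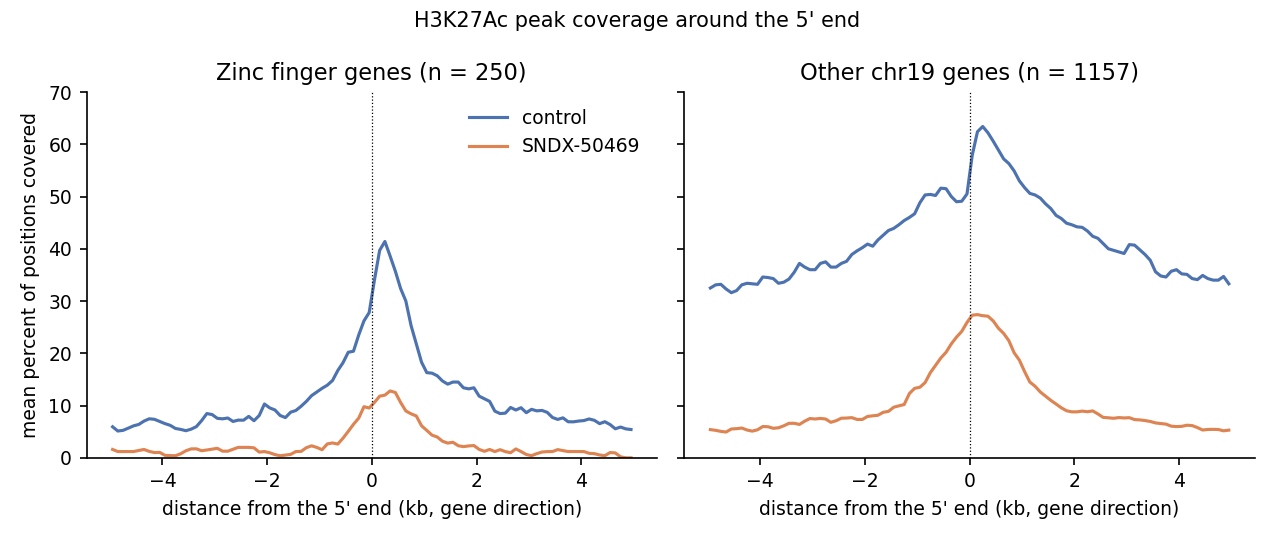
Mean percent of positions covered by a peak against the distance from the 5′ end (kb, positive into the gene), for the 250 zinc finger genes and the 1157 other chromosome 19 genes, in control and after SNDX-50469. The zinc finger genes show a peak at the 5′ end that falls to 6.40% in control at 4 to 5 kb, whereas the other genes stay at 34.4%.

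The width of control coverage went along with what was kept. None of the 28 members with 1 to 500 bp covered in control kept a position (interval 0 to 12.1%), against 6 of 29 with 501 to 1000 bp (20.7%, 9.85 to 38.4), 13 of 29 with 1001 to 1500 bp (44.8%, 28.4 to 62.5) and 27 of 34 with 1501 to 2001 bp (79.4%, 63.2 to 89.7). The other chromosome 19 genes gave 0%, 14.6%, 41.9% and 78.6% in the same classes, each within the members' interval. By length, members kept 12.5% of their covered positions in the class of 501 to 1000 bp, 27.4% in that of 1001 to 1500 bp and 37.3% in the widest, against 6.50%, 22.4% and 46.3% at the other genes. The classes also held different shares of the genes. Only 28.3% of covered members were in the widest class, against 56.2% of the other covered genes. Members that kept coverage had a median of 1636 bp in control, and those covered in control only 632 bp. Control width and kept coverage come from the same pair of libraries, and this relation is a description.

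**Figure D3:**
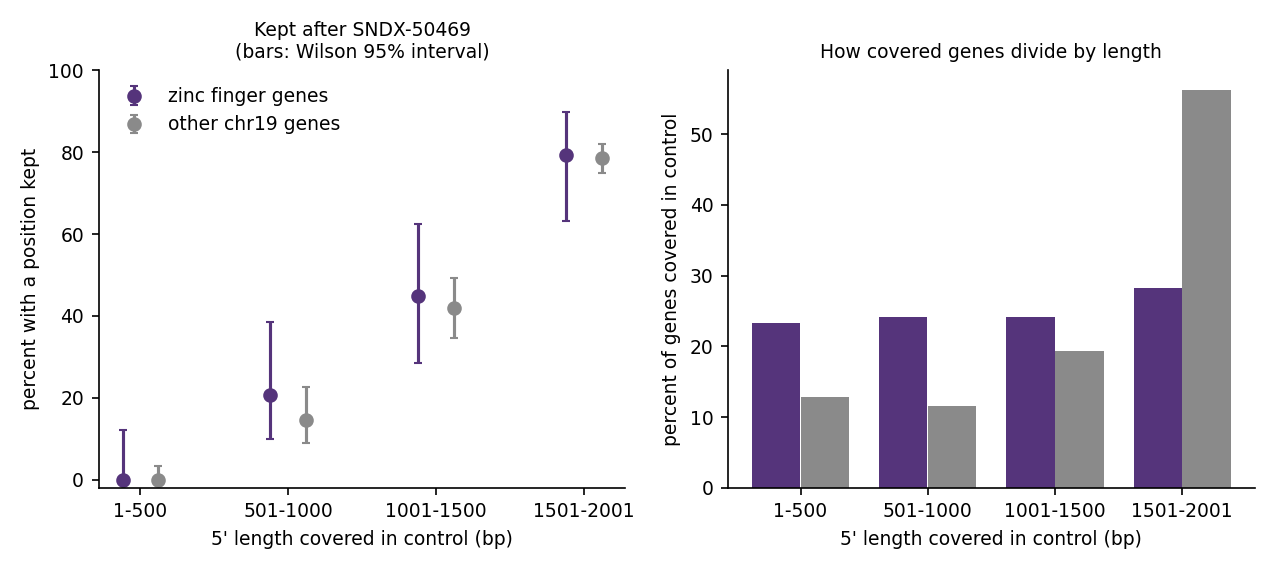
Left, percent of genes with a position kept after SNDX-50469, by the length (bp) of the 5′ window covered in control, with Wilson 95% intervals; right, percent of the genes covered in control that fall in each length class. Zinc finger genes and other chromosome 19 genes have overlapping intervals at each length on the left, while on the right 28.3% of the zinc finger genes and 56.2% of the others are in the widest class.

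Joining neighbours at most 500 kb apart placed 236 members in 10 clusters of at least 5 genes. These are called S1 to S4 on the short arm and L1 to L6 on the long arm, in order from the short-arm end, with positions in Mb on GRCh38. S1 lies at 2.82 to 2.94 (5 members), S2 at 8.51 to 9.79 (14), S3 at 11.48 to 12.63 (25) and S4 at 19.67 to 24.13 (37). L1 lies at 34.68 to 34.96 (5), L2 at 36.18 to 37.78 (26), L3 at 43.53 to 44.50 (23), L4 at 51.57 to 53.58 (41), L5 at 55.48 to 56.67 (17) and L6 at 57.19 to 58.49 (43). The remaining 14 members lie outside clusters. The arms were alike, with 40 of 84 short-arm members covered in control (47.6%, 37.3 to 58.2) and 80 of 166 on the long arm (48.2%, 40.7 to 55.7). After treatment 19 (22.6%) and 31 (18.7%) were covered.

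Within the arms the clusters differed more. In control 5 of 5 members of S1 were covered, 8 of 14 of S2, 14 of 25 of S3 and 10 of 37 of S4. On the long arm 3 of 5 members of L1, 10 of 26 of L2, 13 of 23 of L3, 13 of 41 of L4, 10 of 17 of L5 and 22 of 43 of L6 were covered. The intervals of S4 (15.4 to 43.0%) and L4 (19.6 to 47.0%) did not overlap that of S1 (56.6 to 100%), and those of the other clusters overlapped it. After treatment 1, 4, 5 and 6 members of S1 to S4 were covered, and 2, 4, 4, 3, 5 and 6 of L1 to L6. The lowest share after treatment was that of L4, at 7.32% (2.52 to 19.4), and the highest that of L1, at 40.0% (11.8 to 76.9), with overlapping intervals. Members outside clusters were covered more often, in 12 of 14 cases in control (85.7%, 60.1 to 96.0) and 10 of 14 after treatment (71.4%, 45.4 to 88.3), both above the intervals of the members in clusters (39.5 to 52.1% and 12.7 to 22.3%).

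**Figure D4:**
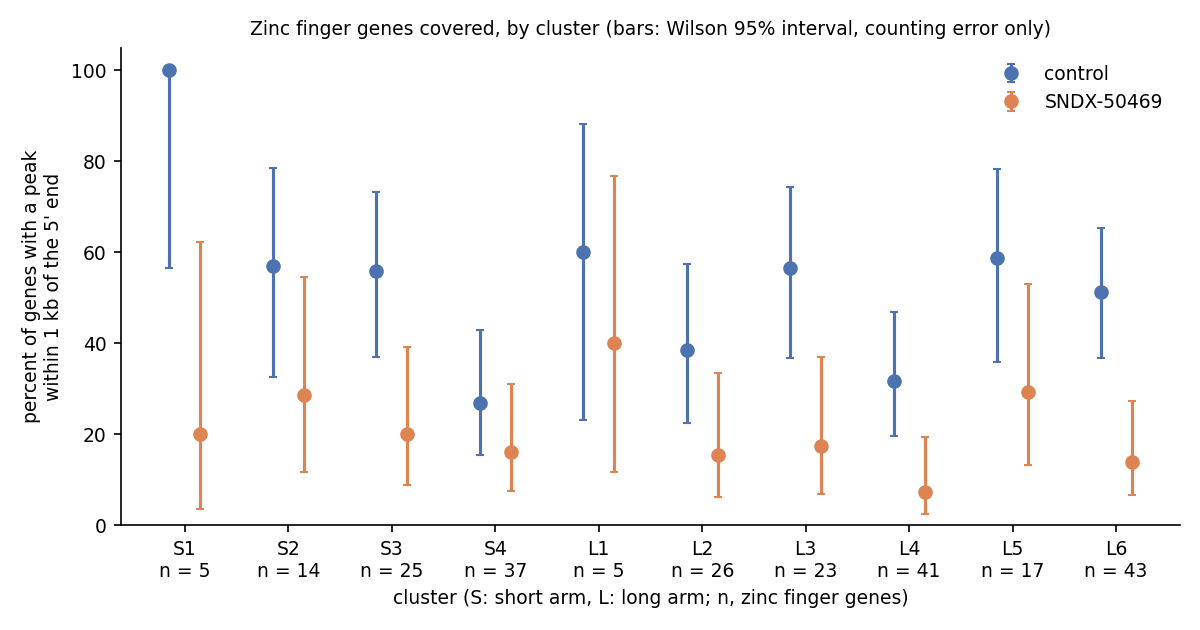
Percent of the zinc finger genes of each cluster with a peak within 1 kb of the 5′ end in control and after SNDX-50469, with Wilson 95% intervals for counting error and the number of genes under each name. S4 is lowest in control, with 10 of 37 genes covered, S1 is highest, with 5 of 5, and every cluster is lower after SNDX-50469.

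S4, which reaches to the pericentromeric gap of genes, had the smallest share of its span covered in both libraries. Its 4462 kb span was covered over 0.475% in control and 0.0642% after treatment, against 21.2% and 3.94% of L3. S4 also held fewer members per Mb, 8.29 against 23.7 in L3, and fewer other genes, 2 against 10. After treatment 16.2% of its members were covered at the 5′ end, above L4 (7.32%), L6 (14.0%) and L2 (15.4%) and below the other clusters. The longest run of uncovered members in control, 13 genes from ZNF43 to ZNF91, lies in S4, and ZNF91 is known for repressing SVA retrotransposons. Among the covered members of S4 were ZNF430 (1177 bp in control and 288 bp after treatment), ZNF100 (1055 and 472 bp) and ZNF714 (763 and 617 bp). ZNF208 of S4 had no peak of either list over the gene and flanks of 5 kb. The same was true of ZNF382 (L2), ZNF28 (L4), ZNF470 (L5), ZNF132 (L6) and ZNF426 (S2). In all, 76 of 250 members (30.4%) had none, a share not counted for other genes. In control alone, 65.2% of members had such a peak, against 78.7% of all protein-coding genes and 67.1% of the other genes inside cluster spans. The longest run without coverage after treatment was 29 members, from ZNF480 to ZNF331 in L4. The longest run with coverage was 10 members in control, from ZNF573 to ZNF283, and 5 after treatment, from ZNF564 to ZNF101.

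The 85 other genes whose bodies lie inside the cluster spans, which include 12 with other zinc finger symbols such as ZFP or ZSCAN, were covered in 40 cases in control (47.1%, 36.8 to 57.6) and 17 after treatment (20.0%, 12.9 to 29.7), next to 45.8% and 16.9% for the members inside. Of the 40, 14 kept a position (35.0%, 22.1 to 50.5), next to 35.2% of members. Without those 12, a choice made after seeing the data, 38 of 73 were covered in control (52.1%, 40.8 to 63.1) and 17 after treatment (23.3%, 15.1 to 34.2), and 14 of the 38 kept a position (36.8%, 23.4 to 52.7). The 12 themselves were covered in 2 cases in control (16.7%, 4.70 to 44.8) and 0 after treatment (0 to 24.2%). The 267 ZNF genes of other chromosomes were covered in 197 cases in control (73.8%, 68.2 to 78.7) and 107 after treatment (40.1%, 34.4 to 46.1), and 53.3% of those covered kept a position. The intervals of the members in clusters and of the ZNF genes elsewhere did not overlap in either library, whereas those of the members in clusters and of the 85 or the 73 other genes inside the spans did. These differences were not tested.

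The gene bodies of members held little acetylation. Over the gene with flanks of 5 kb, 163 members had a peak in control (65.2%) and 90 after treatment (36.0%). The shares were 78.7% and 52.6% over all protein-coding genes and 91.0% and 73.3% over the other chromosome 19 genes. Inside the cluster spans they were 67.1% and 48.2% of the other genes, next to 63.1% and 32.2% of members. The median member was covered over 1.16% of that length in control, against 31.0% at the other chromosome 19 genes. This median was 8.19% over all protein-coding genes, 5.53% at ZNF genes of other chromosomes and 3.40% at the other genes inside the spans. Of the 163, 63 kept a position (38.7%, 31.5 to 46.3) and 100 kept none (61.3%, 53.7 to 68.5), where the share keeping none was 44.7% over all genes and 30.7% over the other genes of the chromosome. The summed length fell from 549211 to 93551 bp, and 13.7% of the control positions were kept, against 17.0% at the other genes and 11.5% over all protein-coding genes. Coverage was lower after treatment at 159 of 250 members and higher at 15. It was lower at 15212 and higher at 641 of all 19675 protein-coding genes. Of the 1157 other chromosome 19 genes, 1041 were lower and 25 higher, and of the 85 inside the spans 54 and 6. Within 1 kb of the 3′ end, 36 members had a peak in control (14.4%, 10.6 to 19.3) and 12 after treatment (4.80%). The shares were 66.9% and 22.0% of the other chromosome 19 genes and 34.7% and 7.91% of all protein-coding genes. They were 24.7% and 6.74% of ZNF genes of other chromosomes and 38.8% and 9.41% of the other genes inside the spans.

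Inside the clusters, a larger share of the covered positions was kept at 5′ ends than over the rest of gene bodies, at members and at other genes alike. The cluster spans add up to 14.4 Mb, of which 5.49% was covered in control and 0.998% after treatment, against 23.2% and 3.68% of the rest of the chromosome. The 5′ windows of members are 3.08% of the spans and held 12.9% of their control coverage and 22.9% of their SNDX-50469 coverage, and 30.2% of the control positions in them were kept. The rest of the member bodies is 42.1% of the spans, was covered over 2.81% in control and 0.346% after treatment, and kept 6.80%. The 5′ windows of other genes kept 34.2% of their control positions. Outside these windows, the bodies of other genes held the largest part of control coverage in the spans, 36.5%, and kept 14.4%. Of the 121071 bp kept in the spans, 30738 bp were in 5′ windows of members, 14343 bp in those of other genes, 11598 bp in the rest of member bodies, 41459 bp in the rest of other gene bodies and 22933 bp between genes.

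Some members carried wide coverage away from their 5′ end. ZNF536, a long gene of 487995 bp that encodes a neuronal zinc finger protein and lies outside clusters, had no peak at its 5′ end but 30392 bp covered over the gene and flanks in control and 3039 bp after treatment. ZNF577 had likewise none at the 5′ end and 22332 bp over the gene and flanks in control. The treated list covered 1546 bp there, of which 491 bp were positions covered in control. ZNF865 had 17270 and 3765 bp, ZNF414 13845 and 6113 bp, and ZNF175 13262 and 1569 bp. Within clusters the highest percent of gene and flanks covered in control was at ZNF414 in S2 (95.5%), ZNF865 in L5 (79.9%) and ZNF575 in L3 (60.7%). Those values were 42.2%, 17.4% and 1.08% after treatment. In S1 ZNF77 was highest (25.5%) and ZNF556 lowest (10.3%), in S3 ZNF791 was highest (40.2%), in S4 ZNF101 (13.0%), in L1 ZNF181 (14.0%), in L2 ZNF146 (17.5%), in L4 ZNF175 (42.5%) and in L6 ZNF837 (42.1%). The lowest members were ZNF599 in L1 (0.502%) and, at 0%, ZNF441 in S3 and ZNF112 in L3 beside those named above for the other clusters, with ties at 0% broken by symbol.

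A divergent partner, a 5′ end on the other strand within 1 kb, was present at 19 of 250 members (7.60%). The share at genes other than members was not counted. The 19 included 7 of the 46 that kept coverage (15.2%), 2 of the 72 covered in control only and 10 of the 128 covered in neither list. In 5 of those 7 the partner was no ZNF gene: ZNF526 with DEDD2, ZNF576 with IRGQ, ZNF296 with GEMIN7, ZNF473 with VRK3 and ZNF524 with FIZ1. The only pair of members to keep coverage was ZNF791 and ZNF490, which share a control peak of 5858 bp and a treated peak of 1075 bp, with 2001 bp of each window covered in control and 988 and 881 bp after treatment. ZNF345 and ZNF790 had 519 bp each in control and 0 bp after treatment. ZNF461 and ZNF567, ZNF382 and ZNF529, and ZNF470 and ZNF470-DT had 0 bp in both libraries.

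By the CpG count of their promoters, covered and uncovered members were closer to each other than were covered and uncovered other genes of the chromosome. RefSeq (GRCh38.p14) promoters, 250 bases before to 50 after the start, were at hand within 1 kb of the 5′ end for 190 members and 912 other chromosome 19 genes. Their median G+C content was 60.5% at members and 64.0% at the other genes. The median number of CpG dinucleotides, whose density marks promoters that stay unmethylated, was 23 at members that kept coverage, 20 at those covered in control only and 20 at those covered in neither list. At the other genes it was 27, 17 and 11, and at ZNF genes of other chromosomes 26, 22 and 18.5. A G+C content of at least 55% was found at 79.3% of uncovered members and 67.5% of uncovered other genes.

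Of the motifs searched on both strands, CCGGAAG, the core bound by ETS factors, was the one with the largest difference between members and the rest. It was in 85 of 190 member promoters (44.7%), in 13.3% of those of the other chromosome 19 genes, in 34.0% of those of ZNF genes elsewhere and in 14.7% of all 14568 promoters of the same length. Among members it was in 34.9% of those that kept coverage, 45.8% of those covered in control only and 48.3% of those covered in neither list, while among the other genes the shares were 20.8%, 9.42% and 4.64%. GGGCGG, the box bound by SP1, was in 66.3% of member promoters and 59.1% of all. CCAAT, bound by NF-Y, was in 52.6% and 36.8%, and TATAAA in 2.63% and 9.76%. GCATGCG, within the site of NRF1, was in 6.32% and 5.31%, and AAGATGGCG, within the site of YY1, in 4.21% and 2.84%. A match is a run of letters and no evidence of binding, and the letters of a pair of overlapping matches are counted for both.

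**Figure D5:**
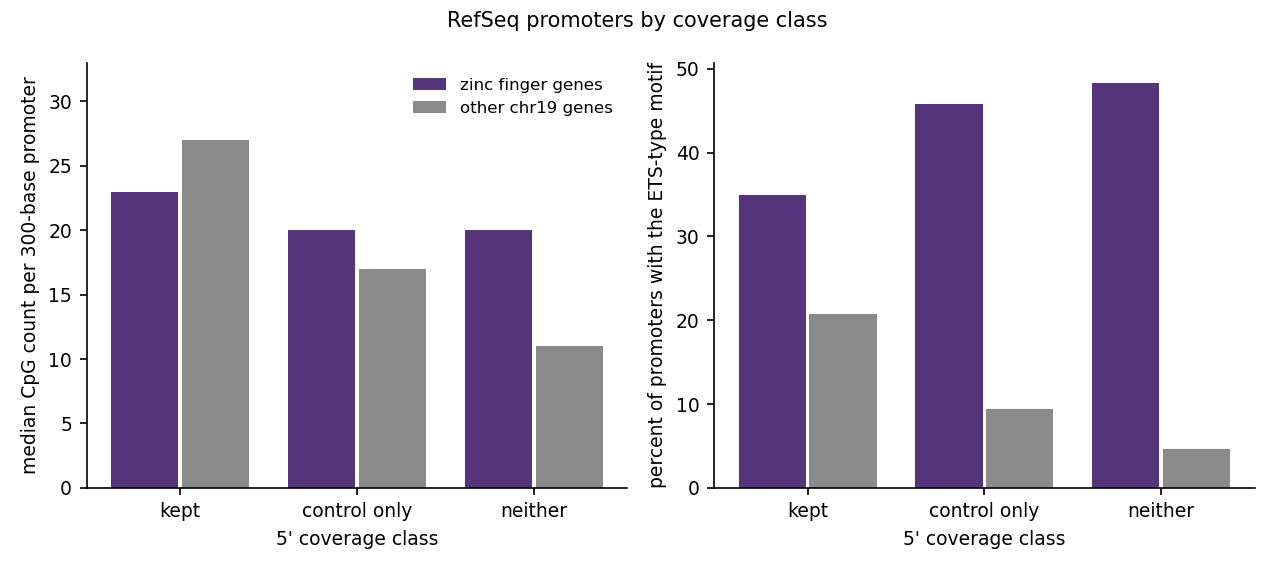
Left, median number of CpG dinucleotides per 300-base RefSeq promoter; right, percent of promoters with the ETS-type motif, for zinc finger genes and other chromosome 19 genes that kept 5′ coverage, were covered in control only or were covered in neither list. The CpG count of zinc finger genes stays between 20 and 23 over the classes, where that of the other genes falls from 27 to 11.

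The 250 bases before the start are printed for 6 members, a pair from each class, to let the letters be compared with the coverage. Capitals mark matches of the searched motifs on either strand, read 5′ to 3′ along the gene. ZNF414 (chr19:8514168-8514417 on the minus strand) and ZNF787 (chr19:56121296-56121545 on the minus strand) kept the longest coverage. ZNF555 (chr19:2841225-2841474 on the plus strand) and ZNF580 (chr19:55640752-55641001 on the plus strand) had the longest control coverage with none after treatment. ZNF426 (chr19:9538646-9538895 on the minus strand) and ZNF441 (chr19:11766750-11766999 on the plus strand) had no coverage at the 5′ end.
ZNF414: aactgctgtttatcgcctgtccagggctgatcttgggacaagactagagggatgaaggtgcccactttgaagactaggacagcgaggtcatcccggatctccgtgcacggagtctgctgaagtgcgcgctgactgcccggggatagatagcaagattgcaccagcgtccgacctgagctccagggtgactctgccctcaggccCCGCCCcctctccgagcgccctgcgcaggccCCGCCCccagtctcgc
ZNF787: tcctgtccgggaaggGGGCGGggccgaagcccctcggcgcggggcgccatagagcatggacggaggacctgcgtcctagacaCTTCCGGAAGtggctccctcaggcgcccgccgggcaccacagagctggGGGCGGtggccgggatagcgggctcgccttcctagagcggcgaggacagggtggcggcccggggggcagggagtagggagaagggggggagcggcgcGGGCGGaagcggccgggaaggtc
ZNF555: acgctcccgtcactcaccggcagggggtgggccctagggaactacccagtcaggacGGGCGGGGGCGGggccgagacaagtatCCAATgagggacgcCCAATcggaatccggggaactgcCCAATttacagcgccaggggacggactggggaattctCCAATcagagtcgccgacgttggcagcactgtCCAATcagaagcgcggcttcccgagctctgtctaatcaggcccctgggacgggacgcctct
ZNF580: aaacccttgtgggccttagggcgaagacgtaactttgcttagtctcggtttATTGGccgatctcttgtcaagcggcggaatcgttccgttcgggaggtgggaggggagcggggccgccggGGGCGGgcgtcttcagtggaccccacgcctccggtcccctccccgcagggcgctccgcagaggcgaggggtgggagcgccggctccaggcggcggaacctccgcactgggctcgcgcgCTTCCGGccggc
ZNF426: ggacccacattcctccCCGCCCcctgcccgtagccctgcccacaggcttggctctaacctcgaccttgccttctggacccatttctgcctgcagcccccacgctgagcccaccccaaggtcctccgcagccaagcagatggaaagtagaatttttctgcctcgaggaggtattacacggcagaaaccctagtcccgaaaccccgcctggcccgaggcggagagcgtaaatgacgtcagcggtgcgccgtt
ZNF441: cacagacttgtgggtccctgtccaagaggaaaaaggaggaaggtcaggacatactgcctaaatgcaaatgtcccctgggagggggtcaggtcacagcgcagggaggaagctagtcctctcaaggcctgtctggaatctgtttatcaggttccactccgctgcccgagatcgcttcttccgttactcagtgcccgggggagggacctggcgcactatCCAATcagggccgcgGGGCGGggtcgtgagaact
The sequences held 2 matches at ZNF414, 5 at ZNF787, 7 at ZNF555, 3 at ZNF580, 1 at ZNF426 and 2 at ZNF441. Each of the 6 held at least 1 GGGCGG, and ZNF555 held 5 CCAAT. Their CpG counts were 16, 27, 20, 30, 16 and 11. The pair without coverage was thus within the range of the covered genes for ZNF426 and below it for ZNF441.

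The genes of the family arose by duplication, and the repeats in their promoters were measured against the GRCh37 genome by letters alone. At 132 of 190 members (69.5%) no stretch of 31 letters occurred more than once, against 812 of 912 other genes (89.0%). Only 1 member promoter (0.526%), covered in neither list, had at least 50% of its stretches repeated, against 32 of the other genes (3.51%). Without that member, 102 of 189 members with a promoter were covered in control (54.0%) and 44 after treatment (23.3%). The shares were 80.5% and 46.6% of the other genes with under 50% repeated. The 189 leave out every member without a promoter within 1 kb. Their shares are therefore not comparable with the 48.0% and 20.0% of all 250 members. The repeats of gene bodies, which hold the zinc finger exons, were not measured, and the part of repeats in the coverage was not tested.

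The corepressor genes through which KRAB proteins act were acetylated throughout in control. All 15 genes of the list (TRIM28, SETDB1, ATF7IP, CBX1, CBX3, CBX5, MPHOSPH8, TASOR, PPHLN1, MORC2, CHD3, HDAC1, HDAC2, DNMT1 and SMARCAD1) were covered at the 5′ end, and 12 remained covered after SNDX-50469. TRIM28, which lies on chromosome 19 beyond the end of L6, had 2001 bp in control and 1445 bp after treatment. SETDB1 had 1158 and 757 bp. The HP1 genes CBX3 and CBX5 were covered over 2001 bp in both libraries, while CBX1 fell from 1379 to 0 bp. Of the HUSH complex, which silences transposable elements with SETDB1, MPHOSPH8 fell from 2001 to 0 bp and PPHLN1 from 1629 to 0 bp, whereas TASOR had 1486 and 1543 bp and MORC2, a partner of the complex, 1739 and 952 bp. The share of the list keeping coverage was 80.0% (54.8 to 93.0), where 49.3% of all genes covered in control kept a position. Control coverage was wide in the list, with a median of 1800 bp, against 1539 bp over all covered genes. Of all genes with 1501 to 2001 bp covered in control, 72.7% kept a position, a share within the interval of the list. The difference was not tested.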

How the data were processed

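H3K27Ac ChIPmentation peak lists of MOLM13 cells were analysed, 1 library per condition. The 2 input libraries were not analysed here. The submitters' processing notes name Trim Galore 0.6.5, Bowtie2 2.3.4.2, Picard 2.9.0, MACS2 2.1.2 and GRCh38, while the study's supplementary methods name TopHat2 and hg38. Peaks were listed per library, and the use of the input libraries is not given in the sources used here. For each peak the authors deposited a ratio (its fold over background), a −log10 p, a −log10 q, and a score that is 10 times the −log10 q. These values are relative to the background of 1 library, so positions and not peak values were compared between lists. The score itself entered no result.

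Genes were the 19675 of 20037 protein-coding genes of the RefSeq GRCh38.p14 table with a strand, taken from RefSeq promoters (219 members) or by symbol from GENCODE (31 members). The 5′ end is the outermost annotated end, and overlapping peaks of a list were merged. A position was kept when it was covered in both lists, and a gene kept coverage when it had at least 1 such position. Members, gene lists, motifs and the rules for named genes were chosen with earlier results of these data known. Named genes were the 10 members with the longest 5′ coverage after SNDX-50469, the 5 widest covered in control only, those covered after treatment only, the 5 with the longest control coverage of gene and flanks, the 5 with the strongest treated peaks, the highest and lowest of each cluster, divergent pairs and the corepressor list. Other genes were named after their values were seen (ZNF302, ZNF101 as a rise, ZNF358, ZNF430, ZNF100, ZNF714, run ends and partners). Python 3.11.15, numpy 2.4.6, pandas 2.3.3 and scipy 1.17.1 were used. Alternatives changed the peak cutoffs, windows, minimum coverage, gene sets and the distance joining clusters. The interval code was tested on simulated data. With 1 library per condition no test was made. A gene of the cell type check is not reported here.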

Additional observations from a re-analysis of the deposited data

How the results depend on the processing

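No paired analysis was possible because there was only 1 library in each group. Windows of 20 of 250 members overlap that of another member, and some genes have inner starts that the outermost end misses. Read depth is unknown, and weak peaks decide many of the counts.

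With only peaks of a −log10 q of at least 5 in each list, 42 members had a control peak and 6 an SNDX-50469 peak at the 5′ end, and the shares keeping coverage were 11.9% of members and 17.7% of other chromosome 19 genes at the 5′ end, and 14.3% and 19.5% over the gene. With control peaks cut at the lowest −log10 p found after treatment, 85 members had a control peak and 50 an SNDX-50469 peak. The shares keeping coverage were 51.8% and 68.0% at the 5′ end and 55.5% and 73.8% over the gene. With the control list limited to the same total length, 21 members had a control peak and 50 an SNDX-50469 peak. The order of these counts was the reverse of the 120 and 50 of the full lists. The shares keeping coverage were 85.7% and 91.7% at the 5′ end and 86.2% and 94.2% over the gene. In each of these lists the share of members was below that of the other genes, but the gap changed from 15.6 points at the 5′ end to 5.80, 16.3 and 5.98, and from 30.7 over the gene to 5.26, 18.4 and 7.95. The first and last rest on 5 of 42 and 18 of 21 members at the 5′ end. With a 5′ window of 5 kb on both sides and 10 kb flanks, other genes kept 61.7% at the 5′ end and 74.8% over the gene. With no flank they kept 61.2% over the gene, and with at least 200 bp covered 64.2%. Only the other genes inside cluster spans gave 35.0% at the 5′ end and 54.4% over the gene, and the difference of other genes minus members at the 5′ end reversed to -3.33 points. Without other zinc finger symbols among these, chosen after seeing the data, the values were 36.8%, 57.7% and -1.49 points. With 5′ ends from RefSeq starts, an alternative chosen after seeing the data, other genes kept 57.4%. Of 52 values, 28 stayed within 1.5 times the count or within the interval of the share. Among them were 12 and 9 clusters when neighbours were joined at 250 and 1000 kb. The cause of these changes was not tested.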

Other observations

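Neighbouring members of the same cluster formed 226 pairs along the chromosome. In control both genes were covered at the 5′ end in 59 pairs, a single gene in 83 and neither in 84, and after SNDX-50469 the counts were 14, 45 and 167.

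The 19 genes of chromosome 19 with other zinc finger symbols (ZFP, ZSCAN, ZIM, ZIK, ZBTB, ZKSCAN and PEG3) were covered at the 5′ end in 5 cases in control (26.3%, Wilson 95% interval 11.8 to 48.8) and 2 after SNDX-50469 (10.5%, 2.94 to 31.4).

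With 5′ ends taken from every RefSeq start of the 219 members that have one, a choice made after seeing the data, 120 members were covered in control (54.8%) and 52 after SNDX-50469 (23.7%), and 51 of the 120 kept a position (42.5%). ZNF558, with no peak at its outermost end, had 4044 bp covered over the gene and flanks in control and 1153 bp after treatment.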
